A study of Mus musculus with 98 samples.

Results

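The comparison described here set cortical thymic epithelial cells (cTEC) sorted from newborn mice (P0) against the same population sorted from mice of 4 weeks. The libraries were all those whose labels name wild-type cTEC at P0 (6 libraries) or at 4 weeks (6 libraries), 12 of the 84 bulk RNA-seq libraries and of the 98 samples of the series, which follows the stroma of the developing thymus. The stroma was sorted as living cells without CD45, and its RNA was read with an ultra-low-input protocol equivalent to Smarter-seq, and digests of adult thymus were first depleted with anti-CD45 microbeads. The study's panel held EpCAM, Ly51, MHC class II and the lectin UEA-1, and the gate that set cTEC apart is not given in the labels. The study's wild-type mice are C57BL/6, and the labels give no mutant allele or treatment for either group. The labels do not say whether each library came from its own mouse, so that the p-values given here measure the spread between libraries. The names of the libraries start with TXCK or DFCK, 3 of each at either age, and the labels do not say what these letters stand for.

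cTEC are the epithelial scaffold of the thymic cortex. They display the Notch ligand Dll4 and secrete Il7, Cxcl12 and Ccl25, which draw in progenitors and keep early thymocytes alive, and they show peptides on MHC molecules to CD4+CD8+ thymocytes during positive selection. Those peptides are made in part by enzymes that few other cells use, namely the thymoproteasome subunit beta5t, encoded by Psmb11, and the serine protease Prss16, and the fate of the cells depends on the transcription factor Foxn1. The thymus of a newborn mouse is still being built, whereas at 4 weeks it is close to its largest size and full of thymocytes.

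Counts assigned to genes ranged from 8481373 to 12943745 per library, and 14784 to 16208 genes had at least 1 count. Values are given as CPM, counts relative to the size of the library as scaled by the trimmed mean of M-values, so that a level is compared between libraries and never between genes. A gene was called when its adjusted p was under 0.05 in edgeR's quasi-likelihood test with Benjamini-Hochberg adjustment over the 13037 genes tested. The first principal component, with 38.6% of the variance, separated the ages, and along the second, with 8.52%, replicates 1 and 4 at 4 weeks lay on opposite sides of the other 4. Y-linked transcripts summed to over 10 CPM in 1 of 6 libraries at P0 and in 5 of 6 at 4 weeks, so that the sex of the mice may nearly have followed age. Libraries without them also had little Xist, the transcript of female cells. Their sums of Y-linked transcripts and Xist were at most 6.18 CPM at P0 and 7.67 CPM at 4 weeks. Their sex was therefore not established, and the presence of Y-linked transcripts was tested only as a term in the model.

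The cTEC label held at both ages. All 10 cTEC markers had a mean over 1 CPM in both groups, and their summed level ran from 18633 to 29936 CPM at P0 and from 29913 to 50479.7 CPM at 4 weeks. Epcam, the epithelial surface marker, measured 265, 275 and 311 CPM (lowest, median and highest of 6 libraries) at P0 and 239, 273 and 352 CPM at 4 weeks, with overlapping groups. Enpep, which encodes the cTEC surface marker Ly51, was at 48.8, 95.4 and 121 CPM at P0 and at 111, 146.2 and 182.3 CPM at 4 weeks, and was called as higher (log2 fold change 0.72 ± 0.20 SE, adjusted p = 0.022). The call of Enpep was lost without replicates 1 and 4 at 4 weeks.

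The groups also differed in RNA of other cells. The 18 thymocyte markers summed to between 53.9 and 128 CPM at P0 and to between 902 and 4276 CPM at 4 weeks, with replicate 1 the lowest of the older group, and all 18 were called as higher at 4 weeks. Ptprc, which encodes CD45 itself, measured 0, 1.57 and 6.05 CPM at P0 and 63.8, 175.2 and 247 CPM at 4 weeks. Cd3e, a chain of the T cell receptor complex, was at 0, 2.15 and 2.93 CPM and then at 32.4, 145 and 159 CPM. These genes did not overlap between the ages, although both groups were sorted as CD45-. Markers of medullary epithelium (mTEC) summed to 251 to 562 CPM at P0 and 1240.2 to 6899.7 CPM at 4 weeks, those of fibroblasts to 168.5 to 378 CPM and 532 to 3146 CPM, and those of mural cells to 92.5 to 191.8 CPM and 285 to 938 CPM. Erythroid markers went from at most 1.72 CPM to between 34.2 and 1399.6 CPM, and B cell markers from at most 18.99 CPM to between 58.6 and 402 CPM, while Itgax of dendritic cells and Ms4a1 and Pax5 of B cells were at 0 in all 12 libraries. Endothelial markers (2.54 to 9.46 CPM, then 20.8 to 167.3 CPM) and macrophage and dendritic cell markers (3.02 to 12.7 CPM, then 9.92 to 63.4 CPM) had low sums at both ages, and parathyroid markers went from between 2.81 and 195.9 CPM to between 0 and 156.5 CPM. Ccl21a, the chemokine of medullary epithelium, was at 76.5, 228 and 349 CPM at P0 and 714, 2217 and 5919 CPM at 4 weeks. In bulk RNA, more cells of a type and more RNA in each cell cannot be told apart, and the part of these other cells in a gene's difference was not tested.

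**Figure D1:**
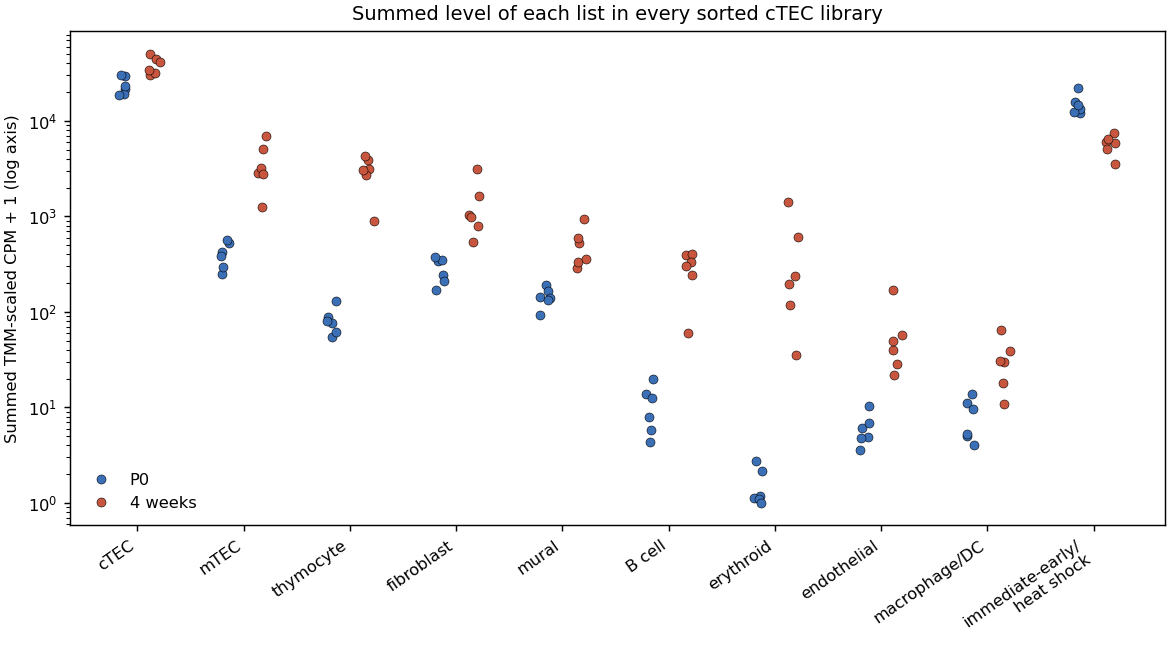
Summed CPM plus 1 (log axis) of each marker list in each library, with P0 and 4-week libraries in separate colours and 1 point per library. The cTEC sums reach 29936 CPM at P0 and 50479.7 CPM at 4 weeks, and the thymocyte sums lie between 53.9 and 128 CPM at P0 and between 902 and 4276 CPM at 4 weeks.

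Of the 13037 genes tested, 2902 (22.3%) differed between the ages, 1600 (12.3%) higher and 1302 (9.99%) lower at 4 weeks, the shares beside which the counts of each gene group stand. The median absolute log2 fold change of the called genes was 1.06, and the median signed log2 fold change of all genes was 0.01. Against a minimum 2-fold change, 404 genes (3.1%) were higher and 129 (0.989%) were lower, and at 1754 genes (13.45%) the 6 libraries of either age did not overlap. With the presence of Y-linked transcripts as a term, 1269 genes were called, 753 higher and 516 lower, of which 1232 were among the 2902. None of the 2902 was called in the opposite direction in any alternative, and no gene differed between libraries named DFCK and TXCK once age was in the model (584 had an unadjusted p under 0.05).

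**Figure D2:**
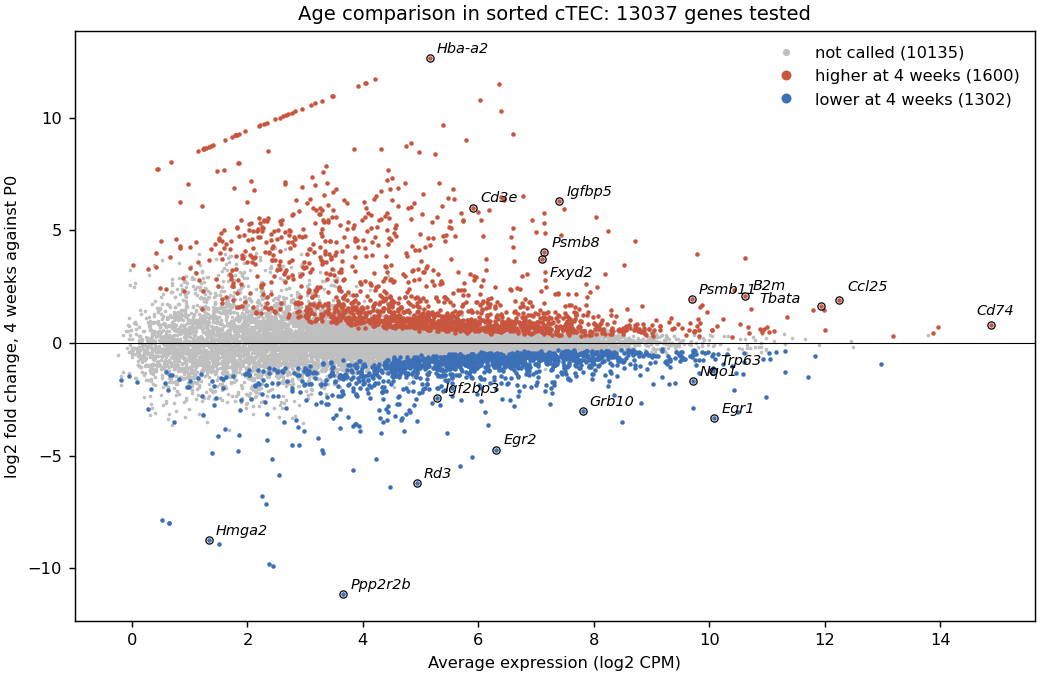
Log2 fold change, 4 weeks over P0 (vertical axis), against mean log2 CPM (horizontal axis) for the 13037 genes tested, with called genes coloured by direction and selected genes named. Called genes lie on both sides of 0, 1600 above and 1302 below, and among the named genes Hba-a2 lies highest and Ppp2r2b lowest.

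Single-cell profiles of CD45- stroma from wild-type P0 thymus in the same series (3 libraries, 11151 cells), made from littermates of Tbx1 and Crkl mutants, gave the level of each gene by cell type at birth. The authors' labels separate perinatal cortical epithelium (PcTEC, 2070 cells) from mature cortical epithelium (McTEC, 955 cells) and also name 208 cells as thymocytes. Of the genes tested in bulk that could be placed, 17.1% had their highest level in PcTEC or McTEC, against 13.95% of the genes higher at 4 weeks and 28.4% of the genes lower. Thymocytes held the highest level of 20.3% of all placed genes, 41.1% of those higher past 2-fold and 2.48% of those lower past 2-fold. Genes lower at 4 weeks were therefore more often cortical in this placement than genes higher at 4 weeks, which is a description without a test. The placement used cells from birth only, the age at which genes lower at 4 weeks have their higher cTEC level. That favoured this direction in advance.

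Of the 6 antigen-processing genes that define the cortex, 4 rose, none fell, and the median log2 fold change was 1.11, beside 0.01 over all genes. The thymoproteasome gene Psmb11 measured 223, 375 and 429 CPM at P0 and 938, 1307 and 1778 CPM at 4 weeks. Every older library lay above every newborn one, a 3.88-fold difference of means (log2 fold change 1.95 ± 0.20, adjusted p = 1.6e-05). Tbata, a gene of cTEC best known from the thymus, brain and testis, rose from 1571, 1869 and 2334 CPM to 4279, 5807 and 7716 CPM (1.63 ± 0.15, adjusted p = 5.9e-06). Cd83, a membrane protein that stabilises MHC class II on cTEC, went from 1852, 2163 and 2526 CPM to 3665, 5472 and 8995 CPM (1.47 ± 0.20, adjusted p = 1.7e-04). Both again separated the ages completely. Ly75, the endocytic receptor DEC-205, rose less, by 0.75 ± 0.18 (adjusted p = 0.0084). For Prss16 the groups overlapped at 8138, 11885 and 17620.2 CPM against 12225, 15297 and 20638 CPM (0.37 ± 0.20, adjusted p = 0.21), and for Ctsl, the lysosomal protease cathepsin L, the difference was 0.16 ± 0.12 (adjusted p = 0.38). In the P0 single cells all 6 genes had their highest level in cortical cells, and cells labelled as thymocytes still held 65.4 CPM of Psmb11 beside 266 CPM in PcTEC and 401 CPM in McTEC. All 4 calls remained without replicates 1 and 4 at 4 weeks and with the Y-linked term.

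The start of Psmb11 and 1 of the 2 starts listed for Ccl25, a chemokine gene described below, each hold 2 copies of the letters GACGC, the core that FOXN1 is known to bind, within 250 bases before to 50 bases after the start site. The sequences are those of RefSeq on GRCm38.p6, the mouse build that the authors' notes call mm10, read 5′ to 3′ on the gene's strand, with GACGC on either strand in capitals. Psmb11 is at chr14:54625060-54625359 and Ccl25 at chr8:4324960-4325259, both on the plus strand.
Psmb11: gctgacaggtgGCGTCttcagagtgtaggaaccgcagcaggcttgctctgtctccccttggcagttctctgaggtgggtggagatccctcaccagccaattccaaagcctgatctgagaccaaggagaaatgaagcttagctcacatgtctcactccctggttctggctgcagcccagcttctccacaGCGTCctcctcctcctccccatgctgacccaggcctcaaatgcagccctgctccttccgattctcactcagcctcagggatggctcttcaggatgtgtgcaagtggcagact
Ccl25: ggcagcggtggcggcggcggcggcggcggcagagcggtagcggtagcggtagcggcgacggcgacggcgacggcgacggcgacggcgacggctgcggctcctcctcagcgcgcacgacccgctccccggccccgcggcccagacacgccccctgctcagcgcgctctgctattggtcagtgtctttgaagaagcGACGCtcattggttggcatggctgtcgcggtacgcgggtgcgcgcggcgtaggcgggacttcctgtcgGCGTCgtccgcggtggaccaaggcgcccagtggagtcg
The same letters were found in 27.2% of all 32851 promoters, in 45.03% of those of genes tested here, in 38.0% of those of genes higher and in 45.7% of those of genes lower at 4 weeks, the lower direction thus holding a share close to that of all genes tested. The other window of Ccl25, at chr8:4349338-4349637, and those of Tbata, Ly75 and Dll4 held no match.

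**Figure D3:**
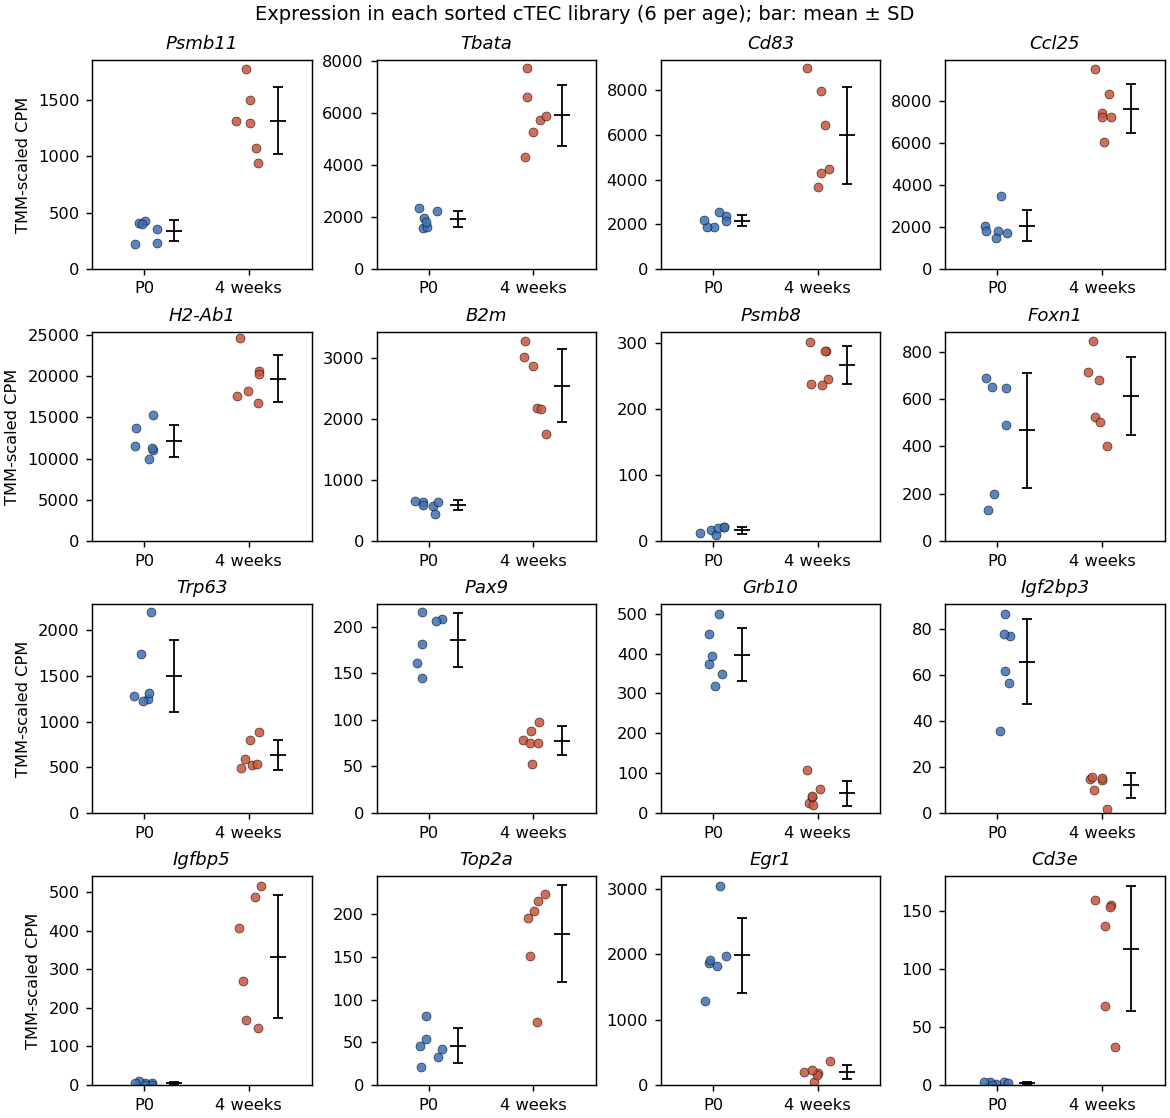
CPM (linear axis from 0) of 16 genes in each of the 12 libraries, with P0 on the left and 4 weeks on the right of each panel and the mean ± SD of each age as a bar beside the points. Psmb11, Tbata, Cd83, Ccl25, H2-Ab1, B2m and Psmb8 do not overlap between the ages and are higher at 4 weeks, Pax9, Trp63, Grb10, Igf2bp3 and Egr1 do not overlap and are lower, and Foxn1 overlaps.

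Of 10 genes of MHC class II presentation tested, 8 were higher and none was lower, beside 12.3% and 9.99% over all genes, with a median log2 fold change of 0.66, and 7 of the 10 did not overlap between the ages, beside 13.45%. In the P0 single cells 7 of the 8 had their highest level in epithelium other than cortical and 1 in cortical cells, and the mTEC marker sum was higher at 4 weeks. Cd74, the invariant chain that guides class II molecules to the lysosome, measured 20390.2, 21811 and 24837 CPM at P0 and 32612, 37902 and 43606 CPM at 4 weeks (0.78 ± 0.08, adjusted p = 2.1e-05). H2-Ab1, a class II chain, went from 9936, 11387 and 15253 CPM to 16719.6, 19226 and 24611 CPM (0.70 ± 0.12, adjusted p = 9.4e-04). The 8 class II genes called were higher by between 1.47-fold (H2-DMb1) and 2.07-fold (H2-DMb2), both chains of the peptide-loading factor H2-DM. Ciita, the master activator of class II transcription, did not pass the test, with 110.2, 228 and 319 CPM at P0 and 186, 229.5 and 253 CPM at 4 weeks (0.01 ± 0.21, adjusted p = 0.98). H2-DMa, the partner of H2-DMb2, went from 242, 338 and 417 CPM to 450.4, 603 and 719 CPM (0.85 ± 0.15, adjusted p = 0.0012). With the Y-linked term 4 of the 8 calls were left, and in the DFCK libraries alone 2 were.

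Among MHC class I and immunoproteasome genes, 14 of 18 tested were higher, none was lower and the median log2 fold change was 0.82. At P0, 10 of the 14 had their highest single-cell level in epithelium other than cortical, 3 in cortical cells and 1 in thymocytes. The mTEC marker sum was higher at 4 weeks, and its part in these values was not tested. B2m, the light chain of every class I molecule, measured 449, 619 and 648 CPM at P0 and 1754, 2529.5 and 3283 CPM at 4 weeks, a 4.31-fold difference (2.11 ± 0.16, adjusted p = 1.7e-06). Psmb8, the immunoproteasome subunit that takes the same place in the proteasome as the product of Psmb11, went from 8.31, 17.8 and 21.3 CPM to 237, 266 and 301 CPM, a 16.4-fold difference (4.03 ± 0.22, adjusted p = 2.1e-07). Neither gene overlapped between the ages, and replicate 1 at 4 weeks, the library with the lowest thymocyte sum, had 3283 CPM of B2m, the highest value, and 288 CPM of Psmb8. The same library had the highest mTEC sum (6899.7 CPM) and the highest mural sum (938 CPM), and sorted mTEC at 4 weeks held means of 8245 CPM of B2m and 703 CPM of Psmb8. In the P0 single cells Psmb8 was at 358 CPM in thymocytes and at 27.99 and 25.01 CPM in PcTEC and McTEC, and B2m at 456 CPM in thymocytes and at 627 and 711 CPM in the cortical cells. H2-D1, a classical class I heavy chain, rose from 1523, 1871 and 2408 CPM to 3865, 5234 and 6510.3 CPM (1.47 ± 0.14, adjusted p = 1.1e-05), and H2-K1, named after its values were seen, by 1.69 ± 0.12 (adjusted p = 1.7e-06). Tap1 and Tapbp, which carry peptides into the endoplasmic reticulum and load them, did not pass the test at 0.05 ± 0.14 and -0.19 ± 0.09, while Tap2, the partner of Tap1 in the transporter and named after its values were seen, was higher by 1.47 ± 0.13 (adjusted p = 5.3e-06). Pdia3, the loading-complex oxidoreductase, was higher by 0.59 ± 0.14 (adjusted p = 0.0072), and Nlrc5, the class I activator, was not among the genes tested. With the Y-linked term 8 of the 14 calls were left.

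Psmb9, another immunoproteasome subunit, rose from 84.5, 118.6 and 185.3 CPM to 217, 302 and 318 CPM (1.24 ± 0.17, adjusted p = 1.5e-04), whereas Tap1, its head-to-head neighbour on chromosome 17, measured 294, 379 and 471 CPM and then 304, 391 and 522 CPM. The 2 start sites lie 226 bases apart on opposite strands, so that 275 of the 300 bases of each window are shared, and the pair is shown because 1 gene was called and the other was not. The window of Psmb9 is at chr17:34187281-34187580 on the minus strand of GRCm38.p6 (RefSeq), with the bases shared with the window of Tap1 in capitals.
Psmb9: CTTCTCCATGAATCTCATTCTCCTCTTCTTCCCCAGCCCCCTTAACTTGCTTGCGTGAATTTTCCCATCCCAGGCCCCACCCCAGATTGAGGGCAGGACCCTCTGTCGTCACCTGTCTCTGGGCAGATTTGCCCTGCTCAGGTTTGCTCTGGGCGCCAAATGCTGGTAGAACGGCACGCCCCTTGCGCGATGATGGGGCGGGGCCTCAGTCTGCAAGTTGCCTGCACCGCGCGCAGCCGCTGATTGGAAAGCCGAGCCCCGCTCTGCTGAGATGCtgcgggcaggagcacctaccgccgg
The window of B2m, at chr2:122147437-122147736 on the plus strand, is printed for the interferon-stimulated response element, searched as GAAA, any 2 bases and GAAA again on both strands, whose match is in capitals.
B2m: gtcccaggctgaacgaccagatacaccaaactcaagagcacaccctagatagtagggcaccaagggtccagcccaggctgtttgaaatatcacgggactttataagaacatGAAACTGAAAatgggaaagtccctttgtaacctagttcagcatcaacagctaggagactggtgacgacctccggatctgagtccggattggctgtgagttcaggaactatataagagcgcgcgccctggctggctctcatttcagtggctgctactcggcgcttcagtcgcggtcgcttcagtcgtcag
This motif was in 4 of 18 promoters of the class I list (22.2%), in 3.44% of all promoters and in 3.14% of those of genes tested. A match describes the letters of a window and not the use of a site.

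Of 29 interferon-stimulated genes tested, 6 were higher and 8 were lower, beside 12.3% and 9.99% over all genes, with a median of 0.02. Iigp1, an interferon-inducible GTPase, fell from 847, 1281 and 1665 CPM to 334, 420.5 and 1008 CPM (log2 fold change -1.33 ± 0.26, adjusted p = 0.002), and replicate 1 at 4 weeks was the library that reached into the newborn range. Gbp2, a guanylate-binding protein, rose from 129, 137.4 and 163.4 CPM to 189, 228 and 258 CPM (0.69 ± 0.11, adjusted p = 4.1e-04). Isg15, a ubiquitin-like modifier, and Irf7, a transcription factor of the response, did not pass the test at 0.02 ± 0.27 and -0.18 ± 0.21. With the Y-linked term 3 were higher and 1 was lower.

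Among transcription factors of the thymic epithelium, 5 of 13 fell and 1 rose. Trp63, the p63 factor of stratified and thymic epithelium, measured 1227, 1297 and 2199.6 CPM at P0 and 491, 562 and 890.2 CPM at 4 weeks (-1.23 ± 0.19, adjusted p = 3.6e-04). Pax9, needed for the pharyngeal pouch from which the thymus grows, went from 145, 194 and 216 CPM to 52.3, 76.7 and 98.01 CPM (-1.26 ± 0.16, adjusted p = 7.5e-05). Neither overlapped between the ages. Its relative Pax1 rose from 171.9, 199.7 and 225 CPM to 206, 301 and 359.6 CPM (0.55 ± 0.14, adjusted p = 0.010), with 1 older library inside the newborn range. Relb, the NF-kappaB factor known from the medulla, fell by 0.74 ± 0.14 on the log2 scale (adjusted p = 0.0018). Foxn1 itself did not pass the test (0.39 ± 0.35, adjusted p = 0.47). At P0 it was at 132.3 and 197 CPM in replicates 4 and 5 and at 489 to 688 CPM in the other 4, and at 4 weeks at 402 to 848 CPM. Eya1, a transcriptional cofactor of pouch development, fell by 0.53 ± 0.15 on the log2 scale (adjusted p = 0.024), a call lost when any of 3 libraries was left out. Stat3 also did not pass, at -0.21 ± 0.13. With the Y-linked term the calls of Trp63 and Pax9 remained and those of Pax1 and Relb did not.

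Of 11 ligands and adhesion molecules that support thymocytes, 2 rose and 1 fell, beside 12.3% and 9.99% over all genes. Ccl25, the chemokine that attracts thymocyte progenitors through Ccr9, measured 1449, 1815 and 3493 CPM at P0 and 6057, 7338 and 9540.2 CPM at 4 weeks, a 3.73-fold difference (1.90 ± 0.19, adjusted p = 1.5e-05). Cxcl12, which acts on Cxcr4, went from 1334, 1534 and 1827 CPM to 2159, 2389.7 and 2734 CPM (0.62 ± 0.10, adjusted p = 4.1e-04). Vcam1, an adhesion molecule bound by integrins of thymocytes, went the other way, from 819, 979 and 1228 CPM to 471, 727 and 809.6 CPM (-0.53 ± 0.14, adjusted p = 0.015). These 3 separated the ages, while Dll4 (0.47 ± 0.20, adjusted p = 0.12), Il7 (-0.39 ± 0.14, adjusted p = 0.066) and Kitl, the stem cell factor (0.22 ± 0.17, adjusted p = 0.40), did not pass the test. The other ligands named, Icam1, Jag2 and Dll1, lay at -0.24 ± 0.14, 0.08 ± 0.17 and -0.73 ± 0.32 and did not pass either. Without replicate 1 at 4 weeks Il7 did pass, at an adjusted p of 0.021 and lower at 4 weeks.

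Of 31 genes of Wnt, BMP, FGF and IGF signalling, 12 were higher and 3 lower, beside 12.3% and 9.99% over all genes, with a median of 0.86. Of the 12, 7 had their highest P0 single-cell level in nonepithelial cells other than thymocytes and 1 in cortical cells, and the fibroblast and mural marker sums were higher at 4 weeks. Igfbp5, which binds insulin-like growth factors, measured 0, 4.49 and 11.4 CPM at P0 and 147, 339 and 516 CPM at 4 weeks (6.30 ± 0.79, adjusted p = 8.1e-05). In the P0 single cells Igfbp5 was at 11.7 and 13.51 CPM in PcTEC and McTEC and at 220.3 CPM in fibroblasts, whose markers were higher in the older libraries. Wnt4, a Wnt ligand upstream of Foxn1, rose from 10.4, 16.2 and 26.6 CPM to 26.9, 34.9 and 55.8 CPM (1.08 ± 0.27, adjusted p = 0.011). Fst, the activin and BMP antagonist follistatin, went from 0, 1.56 and 3.58 CPM to 7.12, 21.3 and 81.1 CPM (4.20 ± 0.99, adjusted p = 0.0071). The calls of Wnt4 and Fst were lost with the Y-linked term, and that of Wnt4 also without replicates 1 and 4 at 4 weeks (adjusted p = 0.055). Sfrp1, a secreted Wnt antagonist, rose from 58.6, 98.1 and 168.3 CPM to 157, 240.5 and 315 CPM (1.18 ± 0.24, adjusted p = 0.0025), with 2 older libraries inside the newborn range. Bmp4 (0.86 ± 0.43) and the FGF receptor gene Fgfr2 (-0.55 ± 0.24) did not pass. Outside the rule for naming, Igf1r, the receptor for insulin-like growth factor 1, fell from 39.3, 52.8 and 67.7 CPM to 2.35, 10.99 and 23.7 CPM (-2.05 ± 0.41, adjusted p = 0.0026), and Lef1, a Wnt effector that was at 631 CPM in P0 thymocytes and at 16.3 CPM in PcTEC, rose by 1.96 ± 0.26 (adjusted p = 1.4e-04) with its lowest older value, 47.9 CPM, in replicate 1.

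Oncofetal and imprinted growth genes are known for high activity before birth. Of 14 tested, 7 were lower at 4 weeks and none was higher, beside 9.99% and 12.3% over all genes, with a median log2 fold change of -1.72. The ages did not overlap at 6 of the 14, beside 13.45% over all genes. Of the 7 that were lower, 6 had their highest P0 single-cell level in nonepithelial cells other than thymocytes and 1 in cortical cells. The fibroblast and mural marker sums were higher at 4 weeks. The part of other cells in the decreases was not tested. Grb10, an imprinted adaptor that restrains insulin and IGF receptors, measured 318, 384 and 500.3 CPM at P0 and 19.98, 41.0 and 106.9 CPM at 4 weeks (-3.02 ± 0.34, adjusted p = 3.8e-05). Igf2bp3, an RNA-binding protein of fetal tissue, went from 35.4, 69.3 and 86.5 CPM to 1.91, 14.5 and 15.6 CPM (-2.45 ± 0.39, adjusted p = 5.2e-04). Hmga2, a chromatin protein of growing fetal cells, was at 0.971, 5.28 and 9.58 CPM at P0 and at 0 in all 6 older libraries, at least 106.6-fold lower when 3 counts over the older group are taken as the floor. H19, a maternally expressed long noncoding RNA, went from 3.67, 7.95 and 19.3 CPM to at most 1.496 CPM (adjusted p = 0.018). Ndn, the imprinted necdin gene, went from 26.3, 38.4 and 83.0 CPM to 5.08, 14.1 and 28.4 CPM with 1 older library inside the newborn range (adjusted p = 0.018), whereas Impact (0.18 ± 0.20) and Hmga1 (-0.35 ± 0.15) did not pass the test. With the Y-linked term 5 of the 7 calls were left, and Lin28b and Igf2 were too low to be tested.

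Of 46 cell cycle genes tested, 21 rose and none fell at 4 weeks, in libraries that also held more RNA of thymocytes and other cells, with a median of 0.88. Top2a, the topoisomerase of dividing cells, measured 20.7, 43.6 and 80.7 CPM at P0 and 73.2, 199 and 224 CPM at 4 weeks (1.95 ± 0.32, adjusted p = 5.8e-04). Rrm2, a subunit of ribonucleotide reductase, went from 48.0, 77.7 and 106 CPM to 177, 340.4 and 467 CPM (2.19 ± 0.24, adjusted p = 2.7e-05). For both, the lowest older value was that of replicate 1, the library with the lowest thymocyte sum, and so it was for Mcm5, a subunit of the replicative helicase (62.1 CPM against 83.2 to 130.5 CPM). Pcna, the sliding clamp of DNA replication, went from 44.3, 69.04 and 93.3 CPM to 125.03, 153 and 159 CPM (1.10 ± 0.17, adjusted p = 4.4e-04). In the P0 single cells Top2a was at 196 CPM in thymocytes, at 456 CPM in the epithelial cells the authors label PrTEC and at 41.0 and 22.5 CPM in PcTEC and McTEC. Of the 21 genes that rose, 16 had their highest P0 single-cell level in nonepithelial cells other than thymocytes, 4 in thymocytes and 0 in cortical cells. Of all 46 tested, 0 had it in cortical cells, since the authors' labels set proliferating cells apart as PrTEC or, outside the epithelium, as Pr. The placement therefore cannot tell whether cTEC themselves cycled more at 4 weeks. Among the nonepithelial cells Top2a was at 1057 CPM in the labels that are not endothelium, fibroblasts or mural cells, pooled here and mostly the cells the authors label Pr, and at 15.4 and 12.8 CPM in fibroblasts and mural cells, whose marker sums were also higher at 4 weeks. Mki67 and Ccnb1, both markers of cycling cells, did not pass the test (1.21 ± 0.91, adjusted p = 0.38, and 0.27 ± 0.22, adjusted p = 0.43), nor did Ccnd2 (-0.23 ± 0.23). The part of the RNA of these other cells in the values was not tested, and the count of cell cycle calls ran from 16 to 28 when 1 library was left out and was 9 with the Y-linked term.

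Mcm5 is shown because its window, at chr8:75109259-75109558 on the plus strand, holds an E2F motif, searched as TTTCCCGC or TTTGGCGC on both strands, whose match is in capitals.
Mcm5: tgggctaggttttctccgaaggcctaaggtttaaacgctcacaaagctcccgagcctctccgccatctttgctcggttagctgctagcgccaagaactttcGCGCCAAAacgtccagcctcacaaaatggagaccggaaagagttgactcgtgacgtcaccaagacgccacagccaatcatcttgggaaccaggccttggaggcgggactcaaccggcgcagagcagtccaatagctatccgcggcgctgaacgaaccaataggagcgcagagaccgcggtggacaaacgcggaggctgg
Such a match was in 16.2% of 37 promoters of the cell cycle list and in 1.56% of all promoters, and the letters CCAAT were in 81.1% of the list and in 37.4% of all. Over the promoters of all genes tested the shares were 2.83% and 37.55%, and over those of all genes higher at 4 weeks 2.44% and 36.5%.

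Of 17 inhibitors of the cycle and targets of p53, 3 were higher and 2 lower, near the 12.3% and 9.99% over all genes. Btg2, an antiproliferative early-response gene, fell from 256, 333 and 594 CPM to 43.2, 116 and 214 CPM (-1.59 ± 0.31, adjusted p = 0.0023), and Phlda3, a p53 target, rose by 0.67 ± 0.15 (adjusted p = 0.0055). Both calls were lost with the Y-linked term. Cdkn1a, encoding p21, and Cdkn1c, encoding p57, did not pass at 0.48 ± 0.23 and -1.77 ± 0.61.

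Immediate-early genes, which respond within minutes to growth signals and also to tissue digestion, were grouped with heat shock genes. The study describes the anti-CD45 bead depletion for digests of adult thymus. Handling before the sort may thus have followed age, and the 2 cannot be told apart here. Of the 20, 11 were lower at 4 weeks and 3 higher, with a median log2 fold change of -1.82. Among the 11, 7 had their highest P0 single-cell level in nonepithelial cells other than thymocytes. Cortical cells held it for 2 and other epithelium for 2. Junb, an AP-1 subunit, measured 2657, 3286 and 4869 CPM at P0 and 305, 671 and 935 CPM at 4 weeks (-2.40 ± 0.23, adjusted p = 1.1e-05). Zfp36, which marks cytokine mRNAs for decay, went from 1791, 2228 and 4434 CPM to 87.5, 329.9 and 505 CPM (-3.07 ± 0.36, adjusted p = 5.4e-05). Egr2, an early growth response factor, went from 74.4, 138.6 and 269 CPM to 3.48, 4.69 and 8.99 CPM (-4.73 ± 0.35, adjusted p = 1.7e-06). No older library reached the newborn range in these 3 genes or in Fos, which was at 601, 722 and 1163 CPM and then at 5.19, 116 and 252 CPM (-2.66 ± 0.54, adjusted p = 0.003). Ier2 and Jun fell by 2.10 ± 0.26 and 1.80 ± 0.39 on the log2 scale, again without overlap. The heat shock gene Hspa8 rose by 0.71 ± 0.12 (adjusted p = 9.1e-04) while Hspa1a did not pass (0.59 ± 0.28). In the P0 single cells Junb was at 2328 ± 98.3 CPM (SD, n = 3 libraries) in PcTEC and at 1063 ± 225 CPM in McTEC.

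The window of Zfp36, at chr7:28379179-28379478 on the minus strand, holds the serum response element of the factor SRF, in capitals.
Zfp36: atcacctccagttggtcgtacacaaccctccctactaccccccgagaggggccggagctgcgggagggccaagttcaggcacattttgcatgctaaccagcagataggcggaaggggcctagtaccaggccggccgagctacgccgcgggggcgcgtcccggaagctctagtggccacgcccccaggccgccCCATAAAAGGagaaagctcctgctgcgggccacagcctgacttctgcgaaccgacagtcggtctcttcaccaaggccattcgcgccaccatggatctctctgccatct
This element was in windows of 2 of the 17 genes of the immediate-early and heat shock list that have one, Zfp36 and Egr2, the latter with 4 such windows of which 3 overlap at the same site. By gene, it was in 1.81% of all 27025 genes with a window and in 1.58% of the genes tested that have one. It was in 4 of the 94 genes lower past 2-fold (4.26%) and in 8 of the 266 genes higher past 2-fold (3.01%).

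Of 12 genes encoded by the mitochondrion, 7 were higher and none was lower, and all 12 had their highest P0 single-cell level in thymocytes, whose marker sum was higher at 4 weeks. Their summed level was 2269 to 3314 CPM at P0 and 3685 to 8531 CPM at 4 weeks, and mt-Cytb, a subunit of complex III, rose by 1.14 ± 0.19 (adjusted p = 6.3e-04). Over replicates 1 to 6 at 4 weeks the thymocyte sums were 902, 3855, 4276, 3121, 2695 and 3043 CPM. The mitochondrial sums of the same libraries were 6069, 3685, 4201, 6224, 5738 and 8531 CPM. The part of thymocyte RNA in these values was not tested. Ribosomal protein genes showed 4 of 84 higher and 2 lower, below the background share of 22.3%, with a median log2 fold change of 0.32 beside 0.01 over all genes. Cholesterol synthesis had 2 of 22 higher, under the 12.3% over all genes, with Hmgcs1 at -0.44 ± 0.36 and Sqle at 0.27 ± 0.23, and of 25 genes of autophagy and lysosome, known to be very active in cTEC, 6 were higher and 2 were lower, beside 12.3% and 9.99%. Lamp1, a lysosomal membrane protein, rose from 344, 379.6 and 479 CPM to 509, 585 and 694 CPM (0.61 ± 0.11, adjusted p = 9.3e-04), whereas Map1lc3b, the LC3 protein of autophagosomes, was at -0.32 ± 0.13 (adjusted p = 0.088) and Lamp2 at 0.09 ± 0.08 (adjusted p = 0.47).

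Among 27 genes of basement membrane and adhesion, 7 fell and 1 rose. Nonepithelial cells other than thymocytes held the highest P0 single-cell level of 5 of the 7, cortical cells of 1 and other epithelium of 1. Cdh1, the epithelial cadherin, measured 293, 325 and 365 CPM at P0 and 181, 222 and 281 CPM at 4 weeks (-0.56 ± 0.11, adjusted p = 0.0028). Frem2, a basement membrane protein named after its values were seen, went from 93.1, 107.9 and 135 CPM to 11.6, 17.9 and 28.1 CPM (-2.57 ± 0.21, adjusted p = 3.1e-06). Neither overlapped between the ages, while the laminin chain gene Lamc1 and the integrin gene Itga6 differed by less than their errors (-0.09 ± 0.21 and 0.06 ± 0.25).

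Of 10 keratin genes, 4 rose and 1 fell. Krt8, the keratin of the cortex, measured 3647, 5029 and 7414 CPM and then 4989, 5786 and 7044 CPM, with overlap (0.10 ± 0.16, adjusted p = 0.70). Krt5 and Krt14, which pair in basal and medullary cells, rose from 93.3, 112.2 and 137.4 CPM to 184.98, 221 and 419.6 CPM (1.19 ± 0.20, adjusted p = 6.8e-04) and from 35.2, 51.9 and 141 CPM to 256, 338 and 699 CPM (2.62 ± 0.36, adjusted p = 1.7e-04). Krt19, a keratin of simple and medullary epithelium, was at most 2.63 CPM at P0 and at 7.02, 14.6 and 136.04 CPM at 4 weeks (adjusted p = 0.0029). Krt5 and Krt14 are also on the mTEC marker list, whose summed level rose, and in the P0 single cells Krt14 was at 541 CPM in intertypical epithelium (ItTEC) and at 60.6 and 76.1 CPM in PcTEC and McTEC.

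Complement genes had 6 of 11 higher and none lower, and C3 went from 6.00, 14.1 and 23.9 CPM to 56.1, 162 and 292 CPM (3.66 ± 0.45, adjusted p = 7.2e-05). Of 11 complement genes tested, none had its highest P0 single-cell level in cortical cells, and the 6 that rose had it in nonepithelial cells. With the Y-linked term 1 of the 6 calls was left. Glucocorticoid-responsive genes were mixed, 3 of 13 higher and 4 lower, with Tsc22d3, encoding the leucine zipper protein Gilz, at 0.30 ± 0.14 (adjusted p = 0.15) and the receptor gene Nr3c1 at 0.33 ± 0.12 (adjusted p = 0.065).

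**Figure D4:**
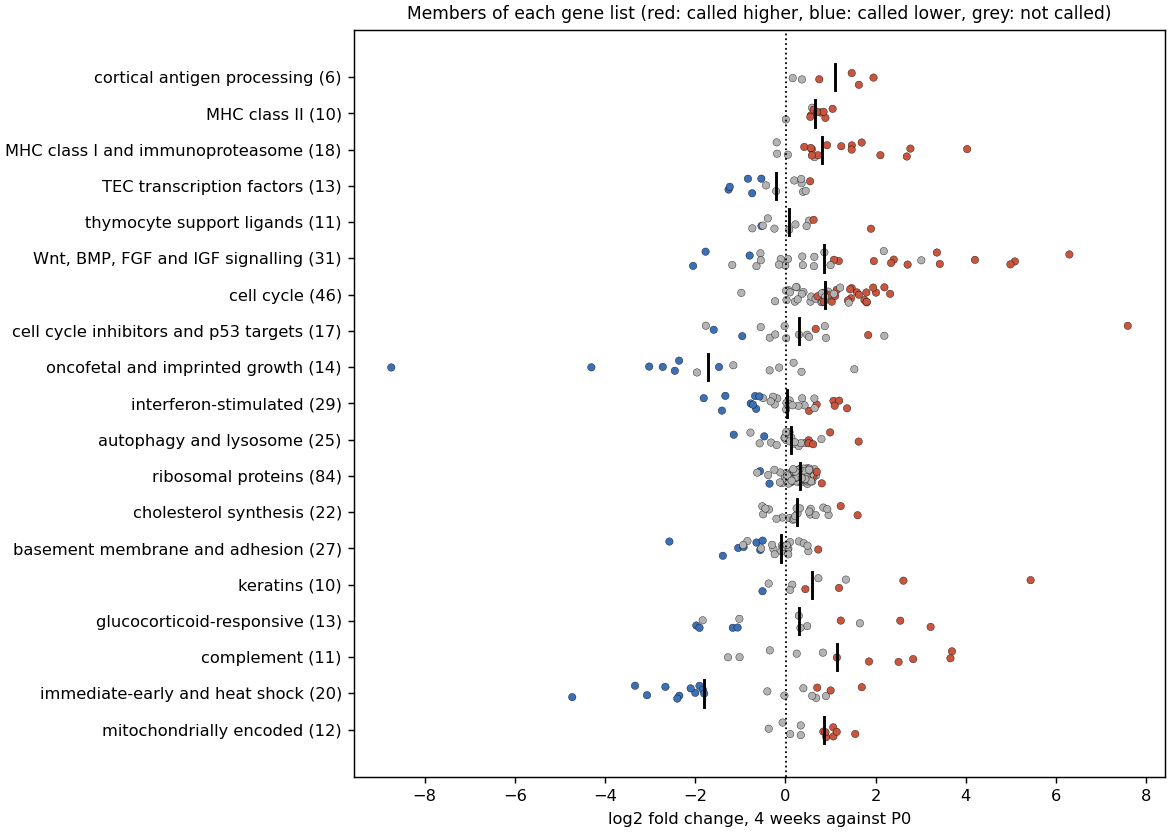
Log2 fold change, 4 weeks over P0, of every tested member of each gene list (1 point per gene, red called higher, blue called lower, grey not called), with the list median as a bar. Among the lists other than cell type markers and sex-linked genes, medians run from -1.82 for immediate-early and heat shock genes and -1.72 for oncofetal and imprinted growth genes to 1.11 for cortical antigen processing and 1.14 for complement, beside 0.01 over all genes.

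None of the 10 largest called increases, among genes with a mean of at least 20 CPM at 4 weeks, had its highest P0 single-cell level in cortical cells. They were the haemoglobin genes Hba-a2, Hba-a1 and Hbb-bs, then Itgal, Cd96, Cyfip2, Bin2 and Prkcb, all 5 highest in thymocytes, the collagen gene Col1a1, highest in nonepithelial cells, and Ces1d, a carboxylesterase. Itgal, an integrin of leukocytes, was at 0 in every newborn library and at 6.01, 31.4 and 69.9 CPM at 4 weeks, at least 795.5-fold higher with 3 counts over the newborn group as the floor. Col1a1 had 3 counts over all newborn libraries and 11860 over the older ones, a ratio of 3597 (95% counting interval 1230.5 to 17444), with 716 CPM in replicate 6 alone. Ces1d, at 5.89, 25.8 and 67.2 CPM, was at least 715-fold higher and was found at 211 CPM in mTEC and other non-cortical epithelium of the P0 single cells, against 1.75 CPM in PcTEC. Hba-a1 and Hba-a2 are near-identical copies, and their counts cannot be separated with certainty. All 10 had a mean under 1 CPM in the newborn libraries. Ranking by the increase thus selected genes with little RNA in cTEC at birth, which made a highest P0 level in cortical cells unlikely. Their placement at birth does not show which cells held them at 4 weeks.

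Among the 10 largest called decreases, Rd3 and Gm266 had their highest P0 single-cell level in cortical cells. Ppp2r2b, a regulatory subunit of phosphatase 2A, measured 13.9, 23.7 and 42.3 CPM at P0 and 0 in all older libraries, at least 569.7-fold lower. Rd3, known from photoreceptors, went from 50.8, 61.3 and 65.9 CPM to at most 2.45 CPM (-6.23 ± 0.77, adjusted p = 7.9e-05). Fbn2, the fetal fibrillin, fell by 5.63 ± 0.98 on the log2 scale (adjusted p = 9.9e-04), and Stat4, a transcription factor of interleukin-12 signalling, by 3.98 ± 0.57 (adjusted p = 2.4e-04). The others were Ccdc102a, Zfp648, Gm266, Egr2 and Olfm4.

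When the naming was limited, after the values were seen, to genes with their highest P0 single-cell level in cortical cells, the increases were led by Fxyd2 and the decreases by Rd3. Fxyd2, a regulator of the sodium pump, measured 14.2, 18.4 and 27.3 CPM at P0 and 202, 249 and 324 CPM at 4 weeks, a 13.2-fold difference (3.72 ± 0.18, adjusted p = 4.9e-08). Cbr2, a carbonyl reductase, went from 361, 446 and 526 CPM to 1830.4, 2302 and 2904 CPM (2.35 ± 0.14, adjusted p = 2.4e-07). Plekhb1, a pleckstrin-domain protein, went from 43.01, 57.4 and 92.99 CPM to 333, 473 and 764 CPM (3.07 ± 0.26, adjusted p = 4.4e-06). The naming took only genes that did not overlap between the ages, and among them was Fasn, the fatty acid synthase, at 26.6, 43.9 and 61.5 CPM and then 129, 191.1 and 439.9 CPM (2.49 ± 0.34, adjusted p = 1.5e-04). Clec11a, a secreted growth factor of the C-type lectin family, rose by 2.80 ± 0.32 (adjusted p = 4.2e-05), and Bhlhe41, a circadian repressor, by 2.28 ± 0.34 (adjusted p = 3.3e-04). Among the decreases, Ramp3, which modifies calcitonin-type receptors, went from 73.7, 124.3 and 194 CPM to 7.76, 12.7 and 31.9 CPM (-3.08 ± 0.37, adjusted p = 5.8e-05). Crabp2, a carrier of retinoic acid, went from 21.1, 48.2 and 84.3 CPM to 0.728, 6.00 and 9.11 CPM (-3.14 ± 0.51, adjusted p = 5.9e-04). All of these calls but those of Cntnap4, Galr2 and Scn1a, further members of the same selection, remained with the Y-linked term.

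The bulk calls were then set beside the authors' cortical subtypes at birth. Of 2049 genes tested in bulk with their highest level in cortical cells and at least 20 UMIs there, 697 were higher in McTEC than in PcTEC in all 3 libraries and 395 were lower. Among the 214 that rose in bulk, McTEC was higher for 63.6% and lower for 6.07%, and among the 344 that fell it was higher for 21.5% and lower for 34.6%. Past 2-fold, McTEC was higher for 14 of 19 genes that rose and 4 of 40 that fell. Fxyd2 was at 76.5 ± 32.5 CPM in PcTEC and 263 ± 34.01 CPM in McTEC (SD, n = 3 libraries), and Tbata at 1509 ± 289 CPM and 2868 ± 473 CPM. Ramp3 was at 107.2 ± 27.4 CPM and 60.9 ± 20.6 CPM, and Egr1, named after its values were seen, at 985 ± 103.2 CPM and 322 ± 67.5 CPM. Gm266, Synpr, Stpg1 and Pir fell in bulk and were higher in McTEC in all 3 libraries. The subtypes were defined by the authors from these cells and differ in depth, with 5827 UMIs per cell in PcTEC and 3519 in McTEC, so these shares are a description with no test.

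**Figure D5:**
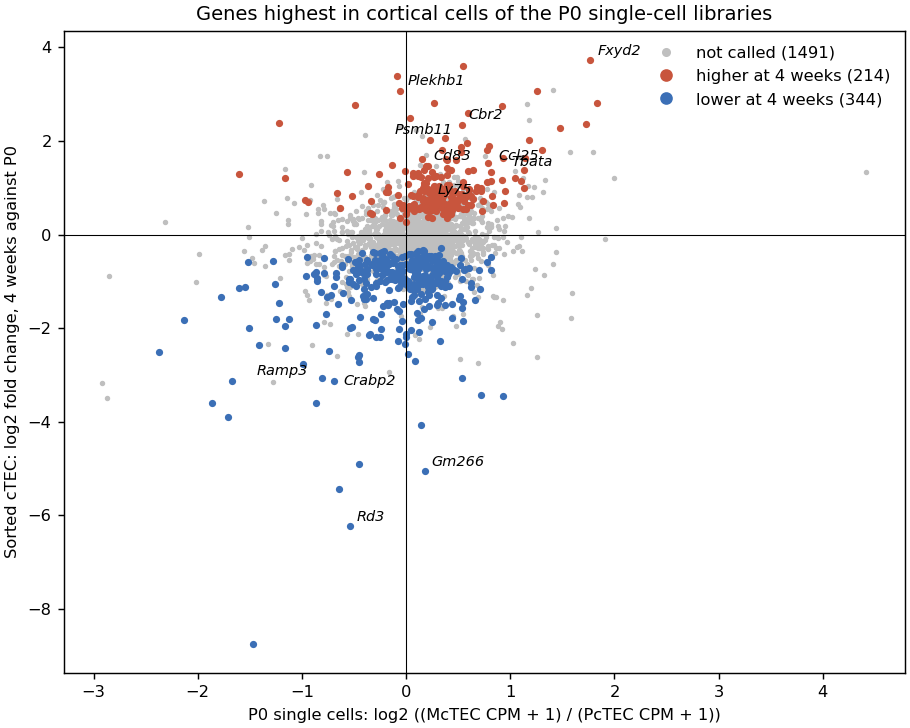
Bulk log2 fold change, 4 weeks over P0 (vertical axis), against the log2 ratio of McTEC to PcTEC (CPM plus 1) in the P0 single cells (horizontal axis) for genes with their highest level in cortical cells, coloured by the bulk call. Of the 214 genes that rose, 63.6% were higher in McTEC in all 3 libraries, and of the 344 that fell, 21.5%.

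Medullary epithelium sorted at the same ages served to show where the change of cTEC differed. Of 17284 genes tested over the 4 groups of 6 libraries, the age change differed at 954 (5.52%), 748 (4.33%) with a more positive change in cTEC and 206 (1.19%) with a more negative one. The labels do not say whether cTEC and mTEC libraries came from the same mice, and the test treats them as separate. A block on pairs formed from the title numbers, described below, gave fewer genes that differed. The split depended on the scaling, with 621 above and 298 below under relative log expression, and on 1 library each of cTEC and mTEC, with 680 and 265 without replicate 1 of cTEC at 4 weeks and 802 and 342 without replicate 3 of mTEC at 4 weeks. Prss16, which did not pass the test within cTEC, had the largest difference among the cortical processing genes, with means of 576 and 48.6 CPM in mTEC at P0 and 4 weeks (difference 3.95 ± 0.44, adjusted p = 4.8e-06). Psmb11 was at 15.7 and 4.67 CPM in mTEC (difference 3.71 ± 0.88, adjusted p = 0.012), and Cd83 at 272 and 147 CPM (difference 2.38 ± 0.34, adjusted p = 9.4e-05). Tbata and Ccl25 differed by 1.32 ± 0.28 (adjusted p = 0.0043) and 1.28 ± 0.29 (adjusted p = 0.0074). The age difference of these cortical genes was thus more positive in cTEC than in mTEC by a test of the difference itself.

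For several changes the difference did not pass the test. B2m had means of 2186 and 8245 CPM in mTEC, with a difference of 0.21 ± 0.21 (adjusted p = 0.72). Trp63 (-0.26 ± 0.37), Pax9 (-0.13 ± 0.27), Grb10 (-0.54 ± 0.40) and H2-Ab1 (0.06 ± 0.15) likewise had differences within 2 standard errors of 0. Psmb8 rose more in cTEC (2.15 ± 0.34, adjusted p = 2.6e-04), from means that in mTEC were 189 and 703 CPM, and Egr2 and Junb fell further in cTEC (-2.30 ± 0.52, adjusted p = 0.0078, and -1.48 ± 0.31, adjusted p = 0.0041). Rrm2 and Top2a differed by 3.52 ± 0.42 (adjusted p = 1.2e-05) and 2.94 ± 0.50 (adjusted p = 6.6e-04), and in mTEC their means were 256 and 104 CPM and 101.4 and 51.7 CPM. The thymocyte marker Rag1, chosen after its values were seen, had means of 6.44 and 4.50 CPM in mTEC and a difference of 5.43 ± 1.41 (adjusted p = 0.022).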

How the data were processed

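Bulk RNA-seq of sorted wild-type cTEC and mTEC (6 libraries each at P0 and 4 weeks) was used, with 3 wild-type P0 single-cell libraries as a description. The submitters' processing notes name STAR 2.5.3a and HTSeq for bulk and Cell Ranger 3.1.0 for single cells, on mm10, and the strand setting of the counting is not given in the sources used here. The deposited bulk values are raw read counts per Ensembl gene, and the deposited single-cell values are UMI counts with the authors' cell labels, after doublets had been removed by the authors with DoubletFinder. Of 39179 gene IDs, 37607 had a symbol. Entries that name no gene took 10.2 to 12.9% of reads in a cTEC library and were left out, and 0 columns of samples were unmapped.

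Counts were filtered with filterByExpr, scaled by the trimmed mean of M-values and tested with edgeR 4.0.16 (glmQLFTest, glmTreat against 2-fold, R 4.3.3, limma 3.58.1), the 12 cTEC libraries alone for age and all 24 for the difference from mTEC. DESeq2 1.42.0 was an alternative. Adjusted p-values are Benjamini-Hochberg over all genes tested, with a threshold of 0.05. Replicates were numbered in accession order. Named genes were the 10 with the largest log2 fold change in each direction (called, not overlapping, mean of at least 20 CPM in the higher group), key members of each list with up to 4 further members by mean CPM, the 5 largest differences from mTEC in each direction, and Ptprc, Epcam and Enpep. Some genes that the rule names are not reported here. Genes outside it are said to be chosen after their values were seen. The members and lists were chosen with earlier results of these data known. A gene's place is the cell type of its highest P0 single-cell level (at least 10 UMIs), and 11 barcodes were shared between those libraries. Promoters are RefSeq windows from 250 bases before to 50 after the start. Python 3.11.15, numpy 2.4.6, pandas 2.3.3 and scipy 1.17.1 were used for tables.

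On simulated counts with 200 changed genes among 13037, the age test recovered 34.3% of 2-fold and 80.3% of 4-fold changes with 4 false calls. The test of the difference from mTEC, over 17284 genes, recovered 42.4% of 4-fold changes. The changed genes were drawn only from those above a minimum mean CPM, so the recovered shares do not cover genes at lower levels. Counting intervals and floors (3 counts) cover counting error only.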

Additional observations from a re-analysis of the deposited data

Results flagged for a closer look

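Of 252 sets of 6 libraries examined, 17 had 1 library far from the other 5 (by Dixon's critical value), and chance flags about 1 in 20 sets. Replicate 5 at P0 stood highest in the sum of thymocyte support ligands (7523 CPM), with Ccl25 alone at 3493 CPM, in the sums of sex-linked transcripts (292 CPM) and parathyroid markers (196 CPM), and in Ddx3y (176 CPM). Replicate 6 at P0 stood highest in Krt14 (141 CPM), Ctsd (444 CPM) and Gm266 (178 CPM), replicate 2 in Isg15 (84.1 CPM) and replicate 3 in Jun (1769 CPM). At 4 weeks replicate 1 stood highest in the interferon-stimulated sum (9909 CPM) and the parathyroid sum (157 CPM), and replicate 6 in the endothelial sum (167.3 CPM), Col1a1 (716 CPM) and Cdkn1c (33.7 CPM). Replicate 3 at 4 weeks stood lowest in Psmb9 (217 CPM) and in the sex-linked sum (7.67 CPM).

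By the test of the difference itself, the age change differed most between cTEC and mTEC at 5 genes in each direction. The cTEC change was the more negative one for Kcne4, a potassium channel subunit (-11.83 on the log2 scale), Ppp2r2b (-10.01), Gm6999 (-7.07), the chemokine gene Cxcl1 (-6.19) and Rd3 (-6.05). Cxcl1 had means of 9.39 and 52.3 CPM in mTEC at P0 and 4 weeks, and Rd3 of 33.9 and 30.3 CPM. It was the more positive one for Rhoh (13.36), Dpp4 (12.21), Rag2 (12.15), Cd8a (11.69) and Cyfip2 (11.63). Most of these involve libraries at 0, so the fitted values depend on the prior count and bound no fold, and the call of Rag2 was lost without replicate 1 of mTEC at P0.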

How the results depend on the processing

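No paired analysis was possible because the bulk labels give no replicate numbers that the ages share. The title numbers of mTEC libraries, however, run 12 above those of cTEC libraries of the same age and prefix, and the 12 pairs so formed agree in the presence of Y-linked transcripts in 12 of 12. The labels do not call them pairs, their deviations from the group means correlated at -0.03 to 0.08 over genes, and 7 of 12 cTEC libraries were closest to their own number. With this pairing as a block, chosen after seeing the data, 545 genes differed from mTEC in place of 954 (2.47% of those tested above and 0.683% below), and among named genes the calls of Kcne4 and Rag2 were lost. Leaving out 1 library in turn gave 2423 to 2883 genes called between the ages (1340 to 1675 higher, 1026 to 1301 lower), 508 to 643 past 2-fold (363 to 516 higher, a share of 71.5% to 82.4%) and 782 to 1144 that differed from mTEC, those below mTEC being 0.885% to 1.92% of the genes tested. As reported, 206 were below, and 342 without replicate 3 of the mTEC at 4 weeks. The TXCK libraries alone gave 1582 calls (944 higher, 638 lower) and the DFCK libraries alone 933 (576 higher, 357 lower), each fit holding 6 libraries. Fitting the mTEC libraries together with cTEC gave 804 lower calls beside 1915 higher. DESeq2 gave 2509 higher and 1787 lower calls, and 1581 genes that differed from mTEC, of which 567 were below (2.08% of the genes tested). With the presence of Y-linked transcripts as a term, an alternative chosen after seeing the data, 1269 were called (753 higher, 516 lower), and 64 were lower past 2-fold. The share of higher calls was 55.1% as reported, 48.6% with library totals in place of the scaling (1453 higher, 1537 lower) and 70.4% with the mTEC libraries. The cause of these differences was not tested. Of 5169 values over 232 named genes, 4879 kept direction and call, 234 lost the call, 56 gained it and 0 reversed. Leaving out 1 library ended the call of Col1a2 (replicate 6 at 4 weeks, adjusted p = 0.104), Lamb1 (the same library, 0.051) and, for several libraries each, Col4a1, Eya1, Fkbp5, Hmgb2, Irgm1, Krt17, Krt18 and Sesn1. Without replicates 1 and 4 at 4 weeks, also chosen after seeing the data, 10 calls of named genes were lost, among them Enpep (0.052), Wnt4 (0.055) and Rps6 (0.059). In the simulated counts 7.46% of 1.5-fold changes were recovered, so many changes of this size may be missed. Only 200 genes were changed there, fewer than the 2902 called here, which makes the adjusted threshold stricter than in the data. The recovery in the data may thus differ. Of the 2902 genes called, 1340 had an estimated change under 2-fold.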

Other observations

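Some further gene groups were drawn up after the results were seen and are given as values. Of 18 glycolysis genes tested, 5 were lower and 2 higher at 4 weeks, beside 9.99% and 12.3% over all genes, the shares that hold for the other counts here too, with a median log2 fold change of -0.44 beside 0.01 over all genes. Pkm, the pyruvate kinase gene, went from 1207, 2000.0 and 2876 CPM to 649, 787 and 922 CPM (-1.33 ± 0.21, adjusted p = 5.2e-04), and Pfkl, the liver-type phosphofructokinase, from 275, 415 and 827 CPM to 143.995, 168.05 and 242 CPM (-1.48 ± 0.28, adjusted p = 0.0017). Both separated the ages, whereas Pfkp, the platelet-type phosphofructokinase, was higher at 4 weeks (1.80 ± 0.34, adjusted p = 0.0018).

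Of 7 tight junction genes tested, 4 were lower and 1 was higher. Ocln, encoding occludin, went from 28.2, 35.8 and 73.8 CPM to 2.71, 4.90 and 13.2 CPM (-2.72 ± 0.42, adjusted p = 4.1e-04), and Cldn8, a claudin, from 94.3, 139.5 and 193 CPM to 22.98, 43.6 and 90.8 CPM (-1.53 ± 0.29, adjusted p = 0.002). Among 13 chemokine genes, 5 were higher and 2 lower. Cx3cl1, fractalkine, rose by 1.13 ± 0.24 (adjusted p = 0.004), with 5 of 6 older libraries above all newborn ones, while Cxcl10, an interferon-induced chemokine, went from 48.4, 61.2 and 80.7 CPM to 19.2, 30.05 and 35.9 CPM (-1.12 ± 0.20, adjusted p = 0.0012). Of 24 genes of fatty acid synthesis, 7 were higher and 1 was lower, with a median of 0.33. The other groups drawn up were NRF2 targets (6 of 22 higher, 3 lower), peroxiredoxins and metallothioneins (6 of 13 higher, 1 lower), retinoid binding and metabolism (2 of 11 higher, 1 lower) and targets of the aryl hydrocarbon receptor (1 of 4 higher, 1 lower). All adjusted p-values are from edgeR's quasi-likelihood test with Benjamini-Hochberg adjustment over all genes tested.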
